A study of Mus musculus with 20 samples.

Results

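The brush border is the layer of microvilli on the gut side of absorptive epithelial cells, and 9 genes that encode its digestive enzymes, a sugar transporter and a structural protein were followed here. They were chosen by name as the genes Lct, Sis, Mgam, Treh, Alpi, Anpep, Dpp4, Slc5a1 and Vil1, and each was read from the probe whose RefSeq accession maps to the symbol. All 9 were found, of 21150 genes with a symbol on the array, and where a gene had several probes the one with the highest mean signal was taken. Gene expression was measured in pooled tissue of male C57BL/6J mice, an inbred laboratory strain, on 1-colour Agilent arrays, with 20 arrays for 5 tissues and 4 diets. The diets were a high fat diet to which nori extract was added at 2% (w/w), written HFD+Ex, the same diet with porphyran added at 2% (w/w), HFD+PP, the unsupplemented high fat diet at 60% kcal from fat, HFD, and the control diet at 10% kcal from fat, CD. Nori is an edible red seaweed and porphyran is its sulfated polysaccharide. Mice were 5 weeks old at the start and ate the diets for 13 weeks, and each array held 1 tissue pooled from the 7 mice of 1 diet. The tissues were ileum, colon, mesenteric white fat, brown fat and liver.

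The small intestine finishes the digestion of sugars and peptides at the enterocyte surface. Disaccharidases anchored in the microvillus membrane split sucrose, maltose, lactose and trehalose into single sugars, and the sodium-glucose cotransporter next to them takes up glucose and galactose. Peptidases cut residues from the ends of short peptides, and intestinal alkaline phosphatase removes phosphate from lipids and from bacterial lipopolysaccharide. These enzymes are products of mature small intestinal enterocytes, and sucrase-isomaltase is a classic marker of that state. Several of them also serve outside the gut: aminopeptidase N sits on liver canaliculi, kidney tubules and myeloid cells, and dipeptidyl peptidase 4 on T cells, fibroblasts and liver cells.

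All values below are log2 signal minus the 75th percentile of the same array, so a level of 0 is the signal of a spot at that percentile, and levels of different genes are not comparable because each has its own probe. Between 50.7% and 67.9% of the spots of an array were well above background by the scanner software's flag, and no spot was saturated. Spots printed 10 times on an array differed with an SD of 0.06 to 0.08 log2. From this spot spread alone, the technical SD of a difference between 2 arrays is 0.11 log2. Spread between arrays, as from labelling or hybridisation, was not measured and is not part of it. With 1 array per tissue and diet there was no replicate of a diet, so no p-value is given for any difference between diets, and rose and fell mean a difference of at least 2-fold (1 log2). The 4 arrays of ileum shared 1 slide and scan, as did the 4 arrays of colon. In pooled tissue, fewer cells of a type and less RNA per cell cannot be told apart.

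The ileum pools carried the markers of their label. The ileal bile acid binding protein gene Fabp6 read 9.43, 9.56, 9.66 and 9.48 on HFD+Ex, HFD+PP, HFD and CD, against a mean of 2.12 in colon. All 9 of the ileal enterocyte markers were well above background on each ileum array. That flag alone does not set ileum apart, because 7 or 8 of them were also well above background on each colon array. All 9 of the brush border genes were well above background on every ileum and colon array.

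**Figure D1:**
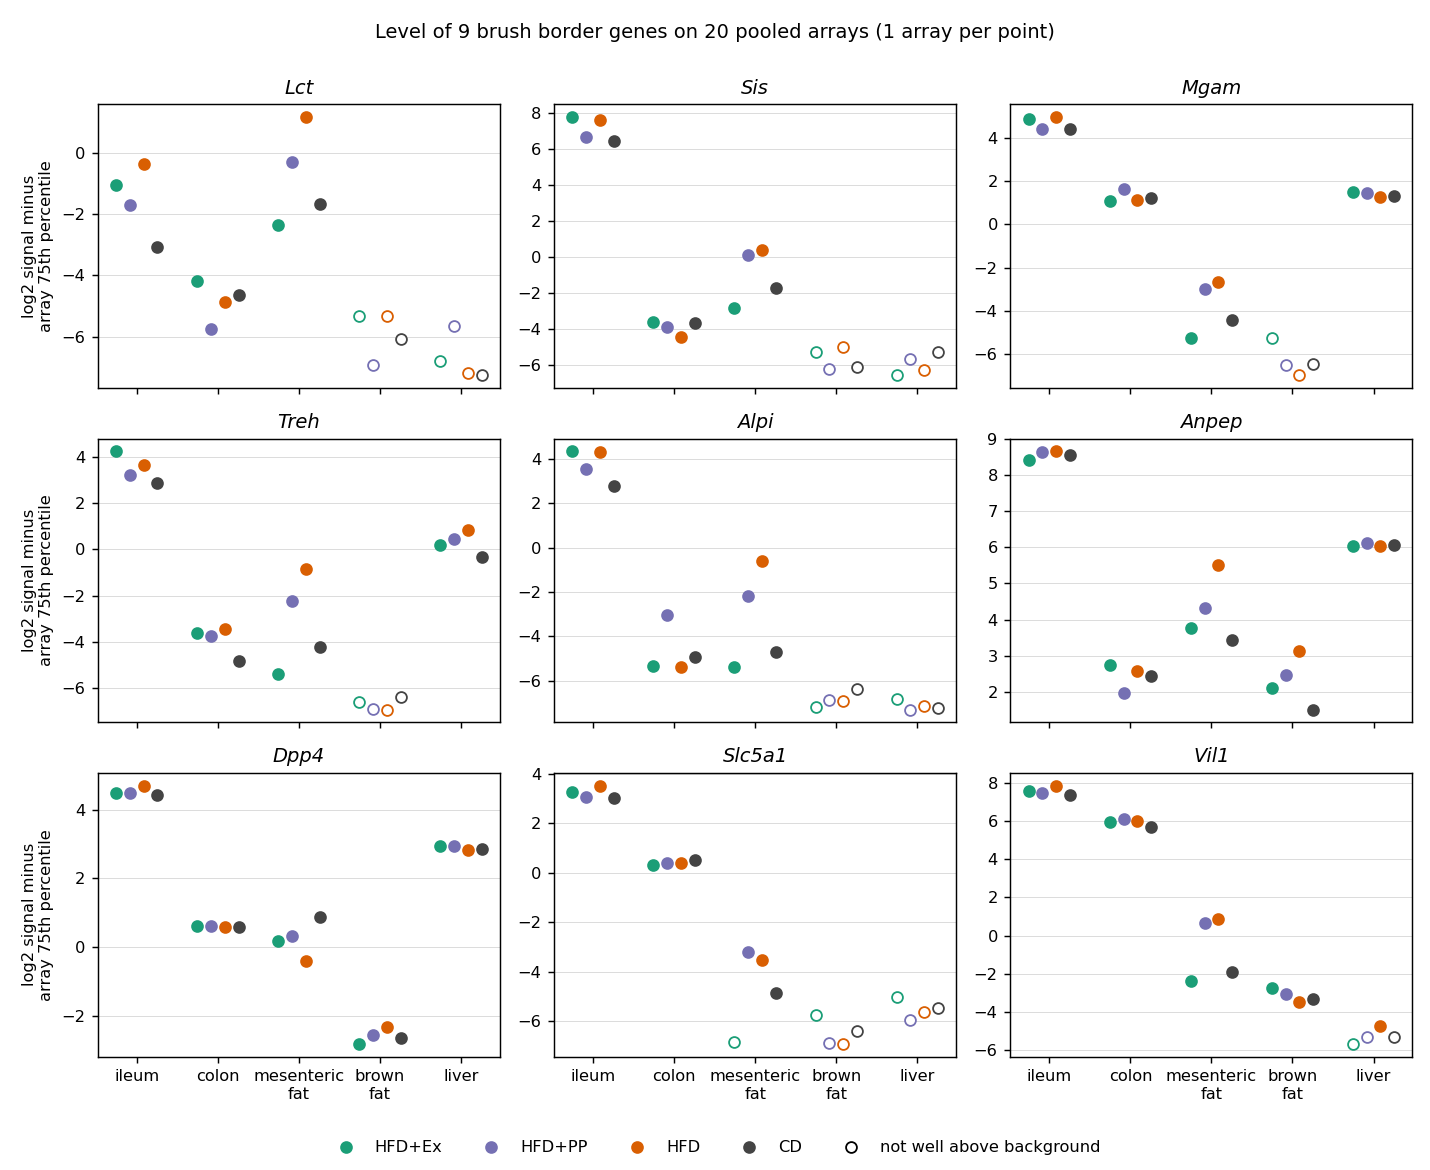
Level of each of the 9 genes (vertical axis, log2 signal minus the array's 75th percentile) in 5 tissues (horizontal axis), with 1 point per array and the diets from left to right as HFD+Ex, HFD+PP, HFD and CD. Open points were not well above background. Every gene was higher in ileum than in colon on each diet, and Lct was higher in mesenteric fat than in ileum on HFD+PP, HFD and CD.

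In the ileum, 4 of the 9 genes differed at least 2-fold between some pair of diets: Lct, Sis, Treh and Alpi. The share of all genes that did so in some pair was not computed. Lct, which encodes lactase, read -1.04 on HFD+Ex, -1.71 on HFD+PP, -0.37 on HFD and -3.09 on CD. Sis, which encodes sucrase-isomaltase, read 7.74, 6.65, 7.61 and 6.42 in the same order of diets. The HFD+Ex and HFD pools were the higher pair for both genes, and the CD pool was the lowest. Alpi, the intestinal alkaline phosphatase gene, read 4.33 on HFD+Ex, 3.54 on HFD+PP, 4.32 on HFD and 2.78 on CD. Treh, which encodes trehalase, read 4.24 on HFD+Ex, 3.24 on HFD+PP, 3.64 on HFD and 2.90 on CD. For Alpi the HFD+Ex and HFD pools differed by 0.01, less than the technical SD, while Treh was highest in the HFD+Ex pool. CD was the lowest diet for 7 of the 9 genes in ileum, and the share of all genes lowest on CD was not computed. For Slc5a1, Dpp4 and Vil1 the next diet, HFD+PP, was only 0.04, 0.05 and 0.09 above CD, less than the technical SD.

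On HFD against CD, Lct rose 6.57-fold (2.72 log2), Alpi 2.91-fold (1.54) and Sis 2.27-fold (1.19) in the ileum, so 3 of the 9 genes rose and 0 fell. Among all 16509 genes measured, 1.62% rose, and the median of all genes was 0.00. The other 6 genes were also higher on HFD than on CD by less than 2-fold. Treh was higher by 0.74, the maltase-glucoamylase gene Mgam by 0.55, the sodium-glucose cotransporter gene Slc5a1 by 0.50 and the villin gene Vil1, whose protein bundles microvillus actin, by 0.49. The dipeptidyl peptidase gene Dpp4 was higher by 0.28, and the aminopeptidase N gene Anpep by 0.10, which is under the technical SD. The median over the 9 genes was 0.55 and that of 14 general gut epithelium markers was 0.23. With the median of those epithelium markers set to 0, Lct and Alpi stayed over 2-fold and Sis came to 0.96 log2.

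On HFD+PP against HFD, Lct fell by 1.34 log2 in the ileum (2.53-fold), the 1 member to fall, where 0.951% of all measured genes fell. All 9 genes were lower on HFD+PP than on HFD, among them Sis by -0.96, Alpi by -0.77, Mgam by -0.55, Slc5a1 by -0.45 and Vil1 by -0.40. Anpep, at -0.02, was under the technical SD. The median of all genes was -0.01, and the share of all genes that were lower was not computed. Set against CD, the HFD+PP pool had Lct 1.38 log2 higher, and 1 of the 9 genes rose where 1.36% of all genes did. Normexp, another way to correct the background, brought the Lct difference of HFD+PP and CD to 0.76 and the Sis difference of HFD+PP and HFD to -1.02. Sis was 0.22, Mgam 0.00 and Slc5a1 0.04 apart between the HFD+PP and CD pools.

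Between HFD+Ex and HFD, 0 of the 9 genes passed 2-fold in the ileum, where 1.85% of all genes passed in either direction. Lct was lower by -0.67 and Treh higher by 0.60, and the other 7 genes lay between -0.29 and 0.14. Set against CD, the HFD+Ex pool had 4 of the 9 genes higher: Lct rose by 2.04 log2, Alpi by 1.55, Treh by 1.35 and Sis by 1.32, with 1.88% of all genes rising. Between the supplements, Sis rose by 1.10 log2 and Treh by 1.01 on HFD+Ex against HFD+PP, where 1.34% of all genes rose. Treh came to 0.97 in that comparison with normexp. These comparisons share arrays: each diet's array enters 3 of the 6.

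**Figure D2:**
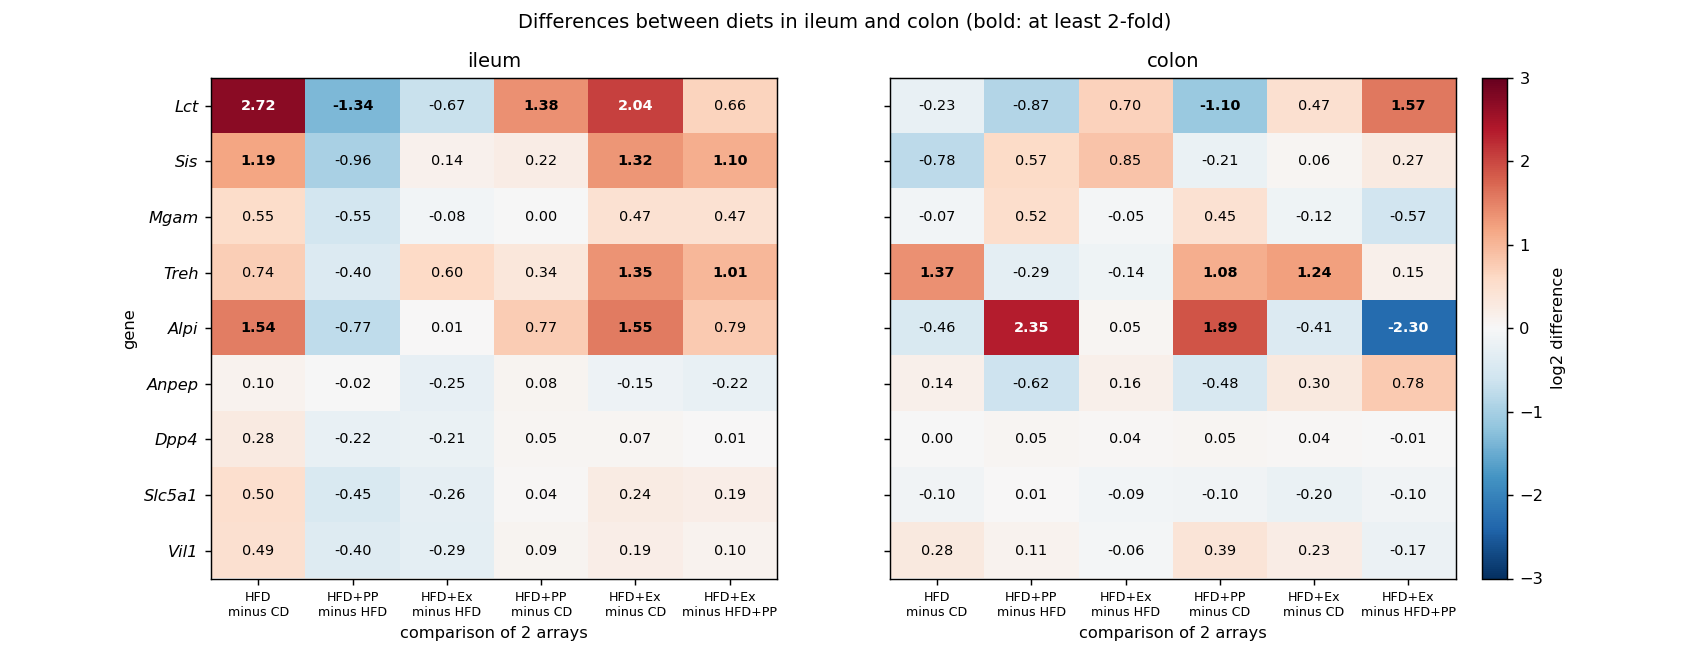
Log2 differences of the 9 genes (rows) between 2 diets (columns) in ileum and colon, with 1 array per diet, red for higher and blue for lower in the first-named diet. Differences of at least 2-fold are in bold: in ileum they lie in Lct, Sis, Treh and Alpi, and Anpep, Dpp4, Slc5a1, Mgam and Vil1 have none in either tissue.

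Other genes of the enterocyte surface were read from lists by role. Of 12 measured genes for other brush border hydrolases, 2 rose and 0 fell on HFD against CD in ileum (median 0.69): the phosphatase gene Alppl2 by 1.30 and the neprilysin gene Mme by 1.26. Of 14 genes for other sugar and peptide transporters, 6 rose and 0 fell (median 0.74). The basolateral glucose transporter gene Slc2a2 rose by 2.28, the imino acid transporter gene Slc6a20a by 1.35, and Slc5a4b and Slc5a4a, relatives of Slc5a1, by 1.89 and 1.77. Of 20 genes for microvillus structure only the scaffold gene Pdzk1 rose, by 1.06, and 0 fell (median 0.53). Of 20 enterocyte transcription factor genes 1 rose and 0 fell (median 0.34): Creb3l3, a membrane-bound factor of fat handling, by 1.80. Cdx2 and Hnf4a, factors that maintain intestinal identity, were higher by 0.32 and 0.29.

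On HFD+PP against HFD the same lists ran lower in ileum. Slc2a2 fell by 1.98 log2, Slc5a4a by 1.48 and Slc5a4b by 1.20, which made 3 of 14 transporters that fell and 0 that rose (median -0.44). The other hydrolases had 0 of 12 genes past 2-fold (median -0.46), and microvillus structure 0 of 20 (median -0.40). Creb3l3 fell by 1.46. Between HFD+Ex and HFD none of these 4 lists had a gene past 2-fold, and their medians ran from -0.25 for the hydrolases to -0.07 for the transporters.

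**Figure D3:**
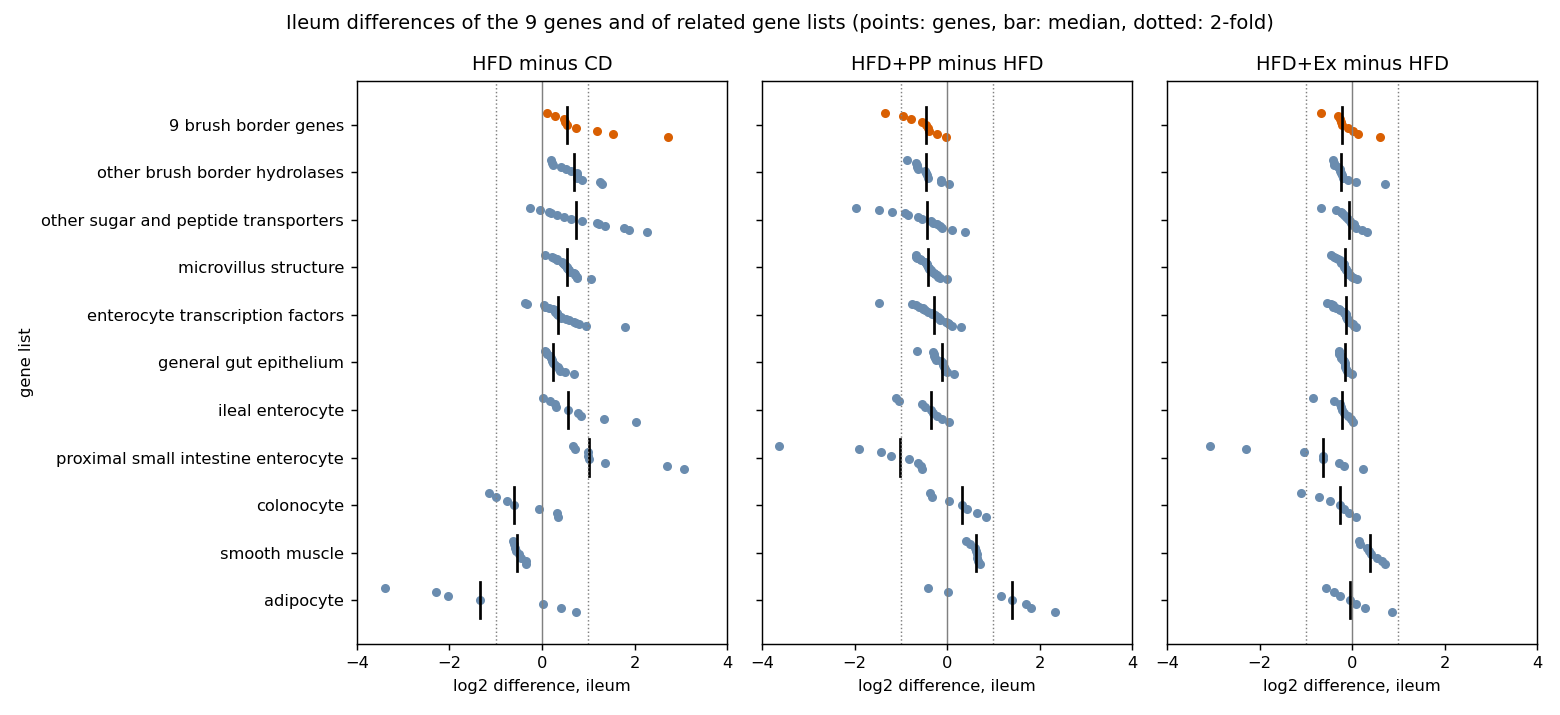
Log2 differences in ileum (horizontal axis) of the 9 brush border genes (orange) and of genes in related lists (blue) for 3 diet comparisons, with 1 array per diet. Each point is a gene, the bar is the list's median and the dotted lines mark 2-fold. The medians of the 9 genes were 0.55 for HFD minus CD, -0.45 for HFD+PP minus HFD and -0.21 for HFD+Ex minus HFD.

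Markers of position along the gut and of neighbouring tissues moved in the same ileum pools. Of 8 markers of proximal small intestine, 4 rose and 0 fell on HFD against CD, and 4 fell and 0 rose on HFD+PP against HFD. The fatty acid binding protein gene Fabp1 read 1.76, 1.20, 4.83 and 1.76 on HFD+Ex, HFD+PP, HFD and CD. Apoa4, an apolipoprotein gene of the same list, read 2.63, 1.82, 3.25 and 0.56. Fabp1 was high in the HFD pool alone, whereas Apoa4, like Lct and Sis, was also higher on HFD+Ex than on HFD+PP and CD. The summed signal of the proximal list was 7.06, 6.70, 7.55 and 6.40 log2 in the same order. Its largest term was the apolipoprotein gene Apoa1, at 6.38, 6.00, 6.56 and 5.58. The proximal list's median was 2.19, 2.33, 3.65 and 2.19, so it was high in the HFD pool alone. The summed signal of 9 colonocyte markers was 6.50, 8.20, 7.43 and 8.49. The acute phase gene Saa1 made up most of this colonocyte sum, at 6.07, 8.02, 7.18 and 8.32, and the colonocyte list's median was nearly the same on all diets, at -2.12, -2.15, -2.20 and -2.13. Adipocyte markers fell in 4 of 7 cases on HFD against CD, where 2.28% of all genes fell. They rose in 5 of 7 on HFD+PP against HFD, where 1.95% of all genes rose. In the same 2 comparisons 8 smooth muscle markers had medians of -0.54 and 0.63. The albumin gene Alb, 1 of 8 hepatocyte markers, was well above background in ileum on CD alone, at 1.12. Means of the other hepatocyte markers over the ileum arrays ran from -3.09 for Fgb to 3.90 for Serpina1a, so Alb does not stand for that list. The part of these markers in the differences of the 9 genes was not tested. Of 9 ileal markers 2 rose and 0 fell on HFD against CD (median 0.55): the hormone gene Fgf15 by 2.02 and the cubilin gene Cubn by 1.34, while Fabp6 was 0.18 higher.

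The promoters of the 3 genes that rose on HFD against CD in ileum are shown, so they were chosen by these same differences. The homeobox factor CDX2 and GATA factors are known regulators of Sis and Lct, and their part in the differences was not tested. In the RefSeq annotation of build GRCm38.p6 all 9 are protein-coding genes: Lct lies at chr1:128284756-128328318, Sis at chr3:72888557-72967863, Mgam at chr6:40628831-40769123, Treh at chr9:44673233-44686305 and Alpi at chr1:87098002-87101606. Anpep lies at chr7:79821803-79848210, Dpp4 at chr2:62330073-62412315, Slc5a1 at chr5:33104219-33162699 and Vil1 at chr1:74409384-74435560. Each line is the 250 bases before the gene's start, read 5′ to 3′ on the gene's strand, which is the minus strand for all 3. The windows are chr1:128328319-128328568 for Lct, chr3:72967864-72968113 for Sis and chr1:87101607-87101856 for Alpi. Capitals mark the CDX core TTTAT and the GATA motif AGATAA on either strand.
Lct: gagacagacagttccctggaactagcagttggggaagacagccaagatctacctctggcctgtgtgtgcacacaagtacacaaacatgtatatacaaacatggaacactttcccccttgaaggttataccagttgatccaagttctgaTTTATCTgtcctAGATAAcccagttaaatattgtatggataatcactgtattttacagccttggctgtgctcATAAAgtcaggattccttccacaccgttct
Sis: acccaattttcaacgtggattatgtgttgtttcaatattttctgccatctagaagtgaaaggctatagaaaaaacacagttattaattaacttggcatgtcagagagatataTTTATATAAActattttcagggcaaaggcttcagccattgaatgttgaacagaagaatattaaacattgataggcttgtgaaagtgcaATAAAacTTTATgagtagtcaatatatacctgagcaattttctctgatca
Alpi: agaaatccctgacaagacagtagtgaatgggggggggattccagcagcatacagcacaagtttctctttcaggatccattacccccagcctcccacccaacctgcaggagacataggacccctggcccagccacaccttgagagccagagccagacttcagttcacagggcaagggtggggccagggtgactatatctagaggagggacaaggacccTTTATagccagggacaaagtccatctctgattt
The Sis window held 4 matches of the CDX core, the Lct window 2 and the Alpi window 1. In Sis they end 134, 129, 46 and 39 bases before the start, and the first 2 of them overlap a pair of TATA-box matches (TATAAA, either strand). The Alpi match also overlaps a TATA-box match. In Lct 1 CDX core overlaps 1 of the 2 GATA matches, and the Sis and Alpi windows held no GATA match. Among the genes that did not rise on HFD against CD, the windows of Mgam (2 CDX, 2 GATA) and Dpp4 (1 CDX, 1 GATA) held matches too, and those of Treh, Anpep, Slc5a1 and Vil1 held none. Of 32851 promoter windows of this length, 37.3% held the CDX core, 9.99% the GATA motif and 12.4% the TATA-box letters. These are matches of letters and no measure of binding.

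In the colon the members that differed with diet were those close to background. Alpi read -5.34 on HFD+Ex, -3.03 on HFD+PP, -5.38 on HFD and -4.93 on CD, so it was high in the HFD+PP pool and low in the other 3. Treh read -3.61, -3.76, -3.47 and -4.84 in the same order, and was low in the CD pool alone. Lct read -4.18, -5.76, -4.88 and -4.65, and was lowest in the HFD+PP pool. Sis read -3.58, -3.86, -4.43 and -3.65. Detection ended between -6.57 and -4.70 over the arrays (the dimmest probe still well above background), and these 4 genes are the ones that came within 4 log2 of it in colon.

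On HFD against CD, Treh rose by 1.37 log2 in colon, the 1 of 9 genes that did, where 0.45% of all genes rose. On HFD+PP against HFD, Alpi rose by 2.35 log2 (5.11-fold), again 1 of 9, where 1.74% of all genes rose. Between HFD+Ex and HFD 0 of 9 passed 2-fold, where 1.54% of all genes passed in either direction. Against CD, the HFD+PP pool had Alpi 1.89 and Treh 1.08 log2 higher and Lct -1.10 lower, 3 of 9 with 3.04% of all genes past 2-fold in either direction. The HFD+Ex pool had Treh 1.24 log2 higher than CD, 1 of 9 where 1.09% of all genes rose. On HFD+Ex against HFD+PP, Lct rose by 1.57 log2 and Alpi fell by 2.30, 2 of 9 with 3.15% past 2-fold in either direction. With the background corrected by normexp none of the colon differences reached 2-fold: Alpi on HFD+PP against HFD came to 0.84 and Treh on HFD against CD to 0.31. With the epithelium markers' median at 0, Treh on HFD+PP against CD came to 0.93.

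The colon levels of the brighter members differed little. Dpp4 stayed within a range of 0.05 log2 over the 4 diets, Slc5a1 within 0.20 and Vil1 within 0.39. Mgam read 1.08, 1.65, 1.13 and 1.20 on HFD+Ex, HFD+PP, HFD and CD, and Anpep 2.74, 1.96, 2.58 and 2.44. The HFD+PP pool had the highest Mgam and the lowest Anpep. Some genes of the related lists had larger differences in the same HFD+PP pool, but the medians of their lists did not rise as much. From HFD to HFD+PP the median level went from -2.17 to -1.4 for the transporters and from 3.17 to 3.20 for microvillus structure. It went from 1.22 to 0.80 for the transcription factors and from -1.73 to -1.57 for the ileal markers. The sodium-proton exchanger gene Slc9a3 rose by 5.52 log2 on HFD+PP against HFD, the homeobox gene Isx by 4.52, the microvillus gene Tmigd1 by 3.80, the fatty acid binding protein gene Fabp2 by 2.36 and Cdx2 by 2.20. Slc9a3 read 1.38, 4.44, -1.08 and 3.38 on HFD+Ex, HFD+PP, HFD and CD, so the HFD+PP and CD pools were both high, while Alpi was high on HFD+PP alone. Of 14 general epithelium markers 0 passed 2-fold (median 0.03).

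Ileum and colon could be compared with a test because both were measured on the same 4 diets. All 9 genes were higher in ileum, in 4 of 4 diets each, by limma with diet as a block at a Benjamini-Hochberg adjusted p under 0.05 over 16386 genes, of which 25.5% were higher in ileum. The spread in this test is that of the tissue difference over the 4 diets and not over single mice. The median over all genes was -0.06.

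Sis differed most among the carbohydrases, with a mean of 7.11 ± 0.67 in ileum and -3.88 ± 0.38 in colon (SD, n = 4 diets each), a 2028-fold difference (10.99 ± 0.31 log2, SE, limma adjusted p = 2.43e-06). Treh averaged 3.50 ± 0.58 in ileum and -3.92 ± 0.63 in colon, a difference of 7.42 ± 0.16 (limma adjusted p = 9.79e-07). With normexp the difference came to 9.43 log2 for Sis and 6.00 for Treh. Mgam was 3.40 ± 0.19 log2 higher (limma adjusted p = 3.40e-05), with 4.66 ± 0.29 in ileum and 1.26 ± 0.26 in colon. Lct was 3.32 ± 0.47 higher (limma adjusted p = 0.00148), and its difference ran from 1.57 on CD to 4.51 on HFD. Lactase thus had the widest spread over diets relative to its size, and with normexp its difference came to 1.82.

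Alpi was 8.41 ± 0.54 log2 higher in ileum (SE, n = 4 diets, limma adjusted p = 6.51e-05), with the smallest difference, 6.58, on HFD+PP and the largest, 9.70, on HFD. With normexp the Alpi difference came to 6.44 (log2). Anpep averaged 8.56 ± 0.11 in ileum and 2.43 ± 0.34 in colon (SD), a 70.2-fold difference (limma adjusted p = 1.37e-06). Dpp4 was 3.92 ± 0.07 higher (SE, limma adjusted p = 4.62e-07), the smallest standard error of the 9. Slc5a1 was 7.01-fold higher (2.81 ± 0.11 log2, limma adjusted p = 8.38e-06), and Vil1, which colonocytes also carry in their microvilli, 3.10-fold higher (1.63 ± 0.08 log2, limma adjusted p = 2.60e-05).

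Most genes of the surface lists were also higher in ileum. Other brush border hydrolases were higher in ileum in 12 of 12 tested genes (median 4.51), with the gamma-glutamyltransferase gene Ggt1 at 7.94 and the glutamyl aminopeptidase gene Enpep at 7.13. Of 14 sugar and peptide transporters 12 were higher and 0 lower (median 3.47), led by the neutral amino acid transporter gene Slc6a19 at 9.49. Of 20 microvillus structure genes 18 were higher and 1 lower (median 1.20), and Pdzk1 at 8.43 and Tmigd1 at 8.35 stood far above that median. Differences between the lists were not tested. Of 20 transcription factor genes 11 were higher and 7 lower: Isx by 7.04, Maf by 4.11 and Creb3l3 by 4.06, against Foxa2 at -3.58. The 14 general epithelium markers had a median of 0.01, while 9 of 9 ileal markers were higher and 9 of 9 colonocyte markers lower. Ileum and colon lay on different slides, so slide and tissue cannot be told apart.

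In mesenteric fat, a tissue with no absorptive epithelium of its own, 8 of the 9 genes were well above background on all 4 arrays. Lct read -2.35 on HFD+Ex, -0.31 on HFD+PP, 1.16 on HFD and -1.68 on CD. Alpi read -5.40, -2.20, -0.59 and -4.72 in the same order, and Vil1 -2.39, 0.66, 0.89 and -1.93. The HFD and HFD+PP pools were the higher pair for all 3 genes and HFD+Ex was the lowest. On HFD against CD 8 genes rose and 1 fell, where 17.3% of all genes passed 2-fold in either direction: Alpi rose by 4.13, Treh by 3.39, Lct by 2.84, Vil1 by 2.82, Sis by 2.15, Anpep by 2.07, Mgam by 1.79 and Slc5a1 by 1.33. Dpp4 fell by 1.27.

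On HFD+PP against HFD 4 of the 9 genes fell in mesenteric fat, where 4.2% of all genes did: Alpi by 1.61, Lct by 1.47, Treh by 1.40 and Anpep by 1.18. On HFD+Ex against HFD 8 of 9 fell, where 3.77% of all genes did, from Anpep, which fell by 1.75, to Alpi, which fell by 4.81 (28.1-fold). Slc5a1 was not well above background on HFD+Ex and fell by at least 5.31-fold. The arrays of HFD and CD shared a slide, and those of HFD+PP and HFD+Ex shared another, so slide and diet cannot be told apart for the supplements against HFD or against CD. With normexp, Mgam and Slc5a1 came to 0.78 and 0.49 on HFD against CD, and Slc5a1 to -0.87 on HFD+Ex against HFD.

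Markers of gut epithelium moved in mesenteric fat with the brush border genes other than Dpp4 on HFD against CD and on HFD+Ex against HFD. Dpp4 went the other way, at -1.27 and 0.56 log2. Of 13 measured general epithelium markers 8 rose and 0 fell on HFD against CD (median 1.32), and 0 rose and 10 fell on HFD+Ex against HFD (median -1.68). The summed signal of the 14 markers was 4.03, 4.81, 4.94 and 3.92 log2 on HFD+Ex, HFD+PP, HFD and CD, against 10.67, 10.78, 10.87 and 10.66 in ileum. Epcam, which marks all gut epithelium, read -4.05, -2.09, -2.09 and -3.59, and the ileal marker Fabp6 -1.81, 1.78, 2.56 and -1.21. The summed signal of 10 exocrine pancreas markers was 9.53, 10.94, 5.11 and 10.37 in the same order, low in the HFD pool alone. The part of these markers in the differences was not tested.

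Lct did not follow the other members when mesenteric fat was set against the ileum of the same diet. Its level in fat was 1.40 log2 above ileum on HFD+PP, 1.53 above on HFD and 1.41 above on CD, and -1.31 from it on HFD+Ex. The other 8 genes were lower in fat on every diet. Mesenteric fat and ileum lay on different slides, so slide and tissue cannot be told apart in these values. On HFD they ran from -3.14 for Anpep to -7.60 for Mgam, with Sis at -7.20, Slc5a1 at -7.03, Vil1 at -6.99, Dpp4 at -5.10, Alpi at -4.91 and Treh at -4.47. Epcam was at -7.47 and Fabp6 at -7.10 on that diet. The 14 general epithelium markers were all lower in fat on each diet, by medians of -9.14, -6.91, -7.01 and -8.34 on HFD+Ex, HFD+PP, HFD and CD. Of 8 proximal small intestine markers, 1 exceeded the ileum in 1 diet: Fabp1 by 2.20 on HFD+PP.

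**Figure D4:**
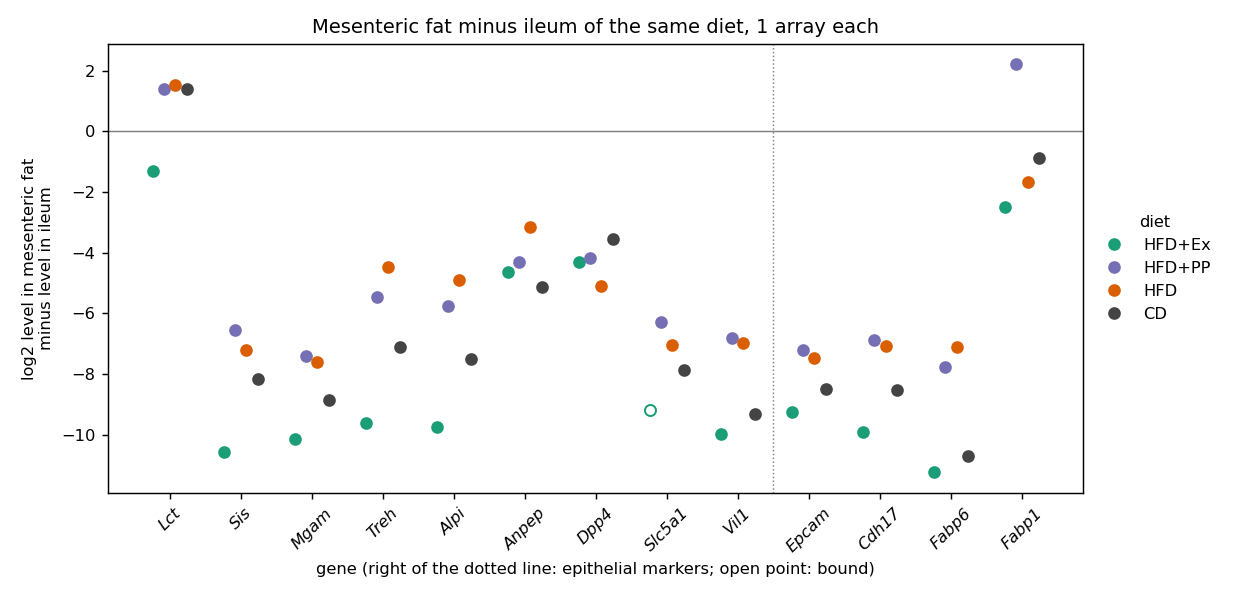
Level in mesenteric fat minus level in ileum of the same diet (vertical axis, log2) for the 9 genes and, right of the dotted line, 4 epithelial markers, with diets from left to right as HFD+Ex, HFD+PP, HFD and CD and 1 array per tissue and diet. An open point is a bound, where the gene was not well above background in fat. Lct lies between 1.40 and 1.53 on 3 diets, and the other 8 genes lie below 0 on all 4. The 2 tissues lay on different slides.

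Anpep and Dpp4 have known sources outside epithelium. Anpep read 3.76, 4.33, 5.51 and 3.44 on HFD+Ex, HFD+PP, HFD and CD, and was highest on HFD, as were Lct, Sis, Mgam, Treh, Alpi and Vil1. Of 8 macrophage markers 7 rose and 0 fell on HFD against CD (median 1.39), with a summed signal of 6.98, 6.99, 7.91 and 6.76 log2 in the same order of diets. Dpp4 read 0.17, 0.32, -0.40 and 0.88, so it was lowest on HFD and highest on CD. All 7 T cell markers on the array fell on HFD against CD (median -3.43), with a summed signal of 5.44, 5.55, 3.54 and 6.75. Of 7 measured markers of DPP4 positive fat progenitors and fibroblasts 3 rose and 1 fell (median 0.69), with a summed signal of 5.47, 5.45, 5.51 and 4.88, lowest on CD where Dpp4 was highest. The part of these markers was not tested.

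In brown fat 6 of the 9 genes were not well above background on any array, among them all 4 carbohydrases, Alpi and Slc5a1. Anpep read 2.10, 2.48, 3.14 and 1.51 on HFD+Ex, HFD+PP, HFD and CD. It rose by 1.63 log2 on HFD against CD, where 6.26% of all genes rose, and fell by 1.04 on HFD+Ex against HFD, where 3.33% fell. The HFD+Ex array of brown fat lay on another slide than the other 3, so slide and diet cannot be told apart in its comparisons, those of markers included. On HFD+PP against HFD 0 of the 3 measured genes passed 2-fold, where 3.7% of all genes passed in either direction, and Anpep was at -0.66. All 8 macrophage markers rose on HFD against CD in brown fat (median 1.77), and 7 of 8 fell on HFD+Ex against HFD (median -1.15), so the Anpep order of diets was also that of their summed signal, which was 5.23, 5.73, 6.31 and 4.74 log2. Their part was not tested.

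In liver 4 of the 9 genes were well above background on all arrays. Anpep stayed within 0.09 log2 over the diets, Dpp4 within 0.14 and Mgam within 0.22. Treh read 0.19, 0.46, 0.86 and -0.34 on HFD+Ex, HFD+PP, HFD and CD. It rose by 1.20 log2 (2.30-fold) on HFD against CD, the 1 of 5 measured genes that did, where 3.48% of all genes rose. Treh was therefore lowest on CD in ileum, colon and liver alike. On HFD+PP and on HFD+Ex against HFD 0 of the measured genes passed 2-fold in liver, where 2.13% and 3.05% of all genes passed in either direction. Vil1 was well above background on HFD alone, at -4.76.

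Over the 20 arrays, which group by tissue, the genes with the most similar pattern among 16378 differed between members. For Sis they were Prap1 (Pearson r = 0.99) and the bile acid transporter gene Slc51a (0.99), and for Alpi they were Sis and Prap1 (0.98 each). Slc5a1 was closest to Cdx2 (0.99) and Btnl5-ps (0.98), Vil1 to Prr15 and Stx3 (0.99 each), and Mgam to Slc9a3r1 and Mapk1ip1l (0.98 each). Treh was closest to Pdzk1 (0.96) and Prlr (0.95), Anpep to Maf (0.96) and Treh (0.95), and Dpp4 to Prlr (0.99) and Mov10 (0.98). Lct had Hoxb5 (0.93) and the neuropeptide gene Gal (0.92) as its closest genes. Among the carbohydrases its r was 0.77 with Sis, 0.37 with Treh and 0.16 with Mgam. Sis had an r of 0.71 with Treh and 0.57 with Mgam, and Treh and Mgam had 0.86. These are descriptions over arrays that share tissues, diets and slides.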

How the data were processed

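RNA of 5 tissues on 4 diets was hybridised to 20 arrays, each a pool of 7 mice. Per the file headers, the deposited intensity of each spot came from Agilent Feature Extraction 11.5.1.1 (protocol GE1_1105_Oct12), background-subtracted within the array and not scaled between arrays. The table of values the authors deposited holds the same intensity times 1 factor per array (log2 factors 0.916 to 1.65, column medians 53.5 to 103.6), linear and not centred. What that factor was set to is not given in the sources used here.

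Control spots and outlier flags (117 to 206 spots per array) were left out, and spots of a probe were averaged. Accessions were matched to RefSeq genes of GRCm38.p6, which named 28020 of 55681 probes. Deposited intensities were turned into log2 minus the array's 75th percentile. A comparison of 2 diets took the genes that 1 or both arrays showed well above background and called those at 2-fold or more. Where only 1 array did, the difference is a bound against the other array's floor: its dimmest probe well above background, or the gene's own signal if higher. Of the 9 genes, Mgam had 2 probes, whose differences were within 0.31 log2 in ileum, colon and liver.

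Ileum and colon were compared with limma 3.58.1 in R 4.3.3 (lmFit and eBayes with trend, diet as block) over genes that 4 or more of the 8 arrays showed well above background. An exact sign-flip permutation over 4 pairs could not go below p = 0.125. Both calculations were tested on simulated data. Because the scanner files used hold no mean signal, the normexp alternative (offset 50) used the median foreground and background signals. The alternatives were quantile normalization, other scalings, filters, probe choices, a 1.5-fold threshold, leaving out each diet and no diet block.

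The members and the gene lists were chosen with earlier results of these data known. All 9 members are named, with the 2 genes most similar to each over the arrays (numbered and predicted genes left out), and of each list at most 4 genes with the largest difference among those called in a comparison. The genes Cdx2, Hnf4a, Fabp6, Saa1, Apoa1, Apoa4, Alb, Fgb, Serpina1a, Fabp1 and Epcam, where this rule does not name them, were picked with their values in view. The number of arrays limits the precision, and p-values measure the spread of the tissue difference over the 4 diets.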

Additional observations from a re-analysis of the deposited data

Results flagged for a closer look

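For some genes 2 tissues moved at least 2-fold in opposite directions under the same pair of diets, with 1 array per tissue and diet. These differences between tissues were not tested, and in mesenteric fat the supplemented diets lay on another slide than CD and HFD, so slide and diet cannot be told apart there. Lct on HFD+PP against CD was 1.38 log2 higher in ileum and 1.37 higher in mesenteric fat, and -1.10 lower in colon, while on HFD+Ex against HFD+PP it was 1.57 higher in colon and -2.04 lower in mesenteric fat. Alpi on HFD+PP against HFD was 2.35 log2 higher in colon and -1.61 lower in mesenteric fat. On HFD+Ex against CD, Sis was 1.32 log2 higher in ileum and -1.09 lower in mesenteric fat, and Treh was 1.35 higher in ileum, 1.24 higher in colon and -1.16 lower in mesenteric fat. On HFD+Ex against HFD+PP, Sis was 1.10 higher in ileum and -2.92 lower in mesenteric fat, and Treh 1.01 higher in ileum and -3.16 lower in mesenteric fat. Among 35 sets of 4 arrays (a gene in a tissue where 1 or more of the 4 arrays was well above background), none held an array set apart from the others by Dixon's criterion.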

How the results depend on the processing

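Of 1493 recomputed differences of single genes, 1459 kept their side of the threshold, and 19 gained and 15 lost 2-fold or significance. Normexp made 13 of the losses and the 1.5-fold threshold 18 of the gains. Some alternatives could change little, so the total is no measure of robustness. The mean of all probes could move Mgam alone, and the filters on dim probes left values unchanged except for bounds. None of the differences called in the main processing changed direction. Changes of sign among differences between diets under 2-fold were not counted. All 9 genes stayed higher in ileum than in colon under every alternative run, also without the diet block (replicate block left out) and with each diet left out (9 of 9 at the lowest and at the highest), with limma adjusted p of at most 0.008, the highest being that of Lct. A slide block for ileum against colon could not be run because no slide holds both tissues.

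Counts of called genes moved by over 1.5 times as follows. With a 1.5-fold threshold they were 3 for HFD+PP minus HFD, 2 for HFD+Ex minus HFD, 2 for HFD+PP minus CD and 4 for HFD+Ex minus HFD+PP in ileum. In colon they were 2 for HFD minus CD, 3 for HFD+PP minus HFD and 2 for HFD+Ex minus HFD, in brown fat 1 for HFD+PP minus HFD and 2 for HFD+Ex minus HFD, and in liver 1 for HFD+Ex minus HFD. With normexp they were 2 for HFD+PP minus HFD, 0 for HFD+PP minus CD and 1 for HFD+Ex minus HFD+PP in ileum, and 0 in colon for HFD minus CD, HFD+PP minus HFD, HFD+PP minus CD, HFD+Ex minus CD and HFD+Ex minus HFD+PP. With no filter on dim probes they were 2 for HFD minus CD, 2 for HFD+PP minus HFD and 3 for HFD+Ex minus HFD in brown fat and 1 for HFD+PP minus HFD in liver. Smaller moves were ileum HFD minus CD (4 at 1.5-fold, 2 with epithelium scaling), colon HFD+Ex minus HFD+PP (3 at 1.5-fold), colon HFD+PP minus CD (2 with epithelium scaling), and in mesenteric fat HFD minus CD (7 with normexp), HFD+PP minus HFD (5 at 1.5-fold) and HFD+Ex minus HFD (7 with normexp or with both arrays required above background). The cause was not tested. Signal over background limits Lct, Sis, Treh and Alpi in colon, whose lowest levels lay 0.18 to 1.66 log2 above the floor.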
